A study of Mus musculus with 14 samples.

Results

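A set of 10 genes of the cytotoxic granule outside the granzyme B cluster was followed across 14 mouse CD8+ T cell libraries: perforin (Prf1), granzymes A, K and M (Gzma, Gzmk, Gzmm), serglycin (Srgn), Nkg7, Serpinb9, cathepsin C (Ctsc), Lamp1 and Unc13d. They were chosen by name, and all 10 were found among the 55291 gene symbols measured. One experiment held 4 libraries of ND-646 cultures and 4 of vehicle (DMSO) cultures. Both were grown from spleens of OT-1 mice, in which the receptor on CD8+ T cells recognises a peptide of ovalbumin. Both were stimulated with 1 µg/mL of that peptide and grown in 200 U/mL human interleukin-2. Activation took 3 days and expansion 4 days, 7 days in all. ND-646, given at 100 nM, inhibits acetyl-CoA carboxylase, the enzyme that makes malonyl-CoA for fatty acid synthesis. The other experiment held 3 libraries of CD8+ T cells sorted from MCA205 fibrosarcomas, 14 days after injection under the skin of C57BL/6 mice, and 3 of CD8+ T cells sorted from spleens of tumour-bearing mice. All libraries are labelled WT. The cultures were begun with whole splenocytes, the tumour samples were pooled, the labels do not say over how many animals, and ages are not given.

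A killer T cell stores its lethal proteins in secretory lysosomes. Perforin opens a passage into the target cell, granzymes are serine proteases that enter through it, and serglycin is the proteoglycan on which both are packed. Cathepsin C trims granzymes into their active form, Serpinb9 blocks granzyme B that leaks into the cytosol, Lamp1 lines the granule membrane, and Unc13d (Munc13-4) primes granules for fusion at the contact with the target.

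Library totals were 27.9 to 33.8 M counts in ND-646 and 23.5 to 29.0 M in vehicle cultures, and 19.6 to 21.0 M in tumour and 19.8 to 20.8 M in spleen samples (M, 1e+06 counts). A count of 3, the most that a count of 0 allows, was 0.0878 to 0.154 CPM (counts in 1e+06), counting error only. Summed CPM of 17 CD8 T cell identity genes was 8154 to 8399 in ND-646 and 8224 to 8448 in vehicle cultures; of the 17, 6 rose and 7 fell with ND-646. Cd8a, a chain of the CD8 coreceptor, averaged 475 CPM with ND-646 and 725 CPM with vehicle (log2 fold change -0.61 ± 0.04, edgeR adjusted p = 1.56e-09). The identity sum was 5519 to 7349 in tumour and 12454 to 12534 in spleen samples, and all 17 genes were lower in tumour. Fibroblast and fibrosarcoma markers summed to 1.12e+04 to 1.62e+04 CPM in tumour and 1.8 to 17.8 CPM in spleen samples, and 15 of 16 were tested and higher. Their part in the tumour results was not tested. NK cell markers, whose cells also make perforin and granzymes, summed to 14.5 to 19.7 CPM in ND-646 and 32.5 to 36.0 CPM in vehicle cultures, and to 86.7 to 118 CPM in tumour and 13.4 to 14.9 CPM in spleen samples. Of the NK markers, 10 were tested in tumour and all 10 were higher (median log2 fold change 3.17). In the cultures 6 were tested, and 4 were lower and 1 higher with ND-646 (median -1.49). Klre1, the most abundant in tumour and spleen samples, stood at 19.3 to 30.0 CPM in tumour and 2.30 to 3.24 CPM in spleen libraries. Ncr1, the defining NK receptor, stood at 0.10 to 0.32 CPM in ND-646, 0.25 to 0.47 CPM in vehicle, 0.79 to 0.96 CPM in tumour and 0 to 0.15 CPM in spleen libraries. In bulk RNA, fewer cells of a type and less RNA per cell cannot be told apart.

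The first comparison asked what inhibition of acetyl-CoA carboxylase did to these transcripts. Of the 10 genes, 9 were tested; 6 fell in ND-646 cultures, 1 rose and 2 did not pass. Over all 14251 genes tested, 26.5% fell, 29.8% rose and 56.3% were called either way (edgeR's quasi-likelihood test, Benjamini-Hochberg adjusted p below 0.05). Perforin and the granzymes moved most, and serglycin and Unc13d had the smallest differences of the tested genes. The median log2 fold change of the tested genes was -0.37, beside 0.01 over all genes. The groups did not overlap for 7 of the 10 genes, against 51.1% of all genes tested. The 7 include Gzmk, which had few reads and was not tested, so the 2 figures do not cover the same kind of gene. Together the 10 genes held 0.135% to 0.142% of all counts in ND-646 and 0.227% to 0.250% in vehicle libraries.

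Prf1 stood at 95.8, 119, 108 and 82.4 CPM in the ND-646 libraries and at 632, 675, 527 and 567 CPM in the vehicle libraries. Every ND-646 value lay far under every vehicle value. The means were 101 ± 15.8 and 600.2 ± 65.9 CPM (SD, n = 4 each), a log2 fold change of -2.56 ± 0.14 (SE), or 5.91-fold lower (edgeR adjusted p = 4.28e-06). Gzma, a protease that cuts after basic residues, stood at 104, 109, 102 and 89.5 CPM with ND-646 and at 446, 461, 432 and 429.5 CPM with vehicle. It fell by 2.13 ± 0.05 on the log2 scale, or 4.37-fold (adjusted p = 1.92e-15), and again the groups were far apart. Both remained called when the test asked for more than a 2-fold change. Gzmb, granzyme B, averaged 2018 ± 46.2 CPM with ND-646 and 3652 ± 251 CPM with vehicle, a log2 fold change of -0.86 ± 0.05 (adjusted p = 2.37e-11).

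Gzmk, a tryptase like granzyme A, and Gzmm, which cuts after methionine or leucine, were scarce in both kinds of culture. Gzmk had 4, 0, 1 and 0 reads in the ND-646 libraries and 6, 8, 12 and 7 in the vehicle libraries. That sums to 5 reads with ND-646 and 33 with vehicle, a ratio of 0.124 after scaling to library size (exact 95% interval 0.0377 to 0.319, counting error only); the filter on low counts left it untested. Gzmm had 16, 19, 4 and 10 reads with ND-646 and 28, 36, 22 and 20 with vehicle. Its log2 fold change was -1.40 ± 0.31 (adjusted p = 0.000793), at mean levels of 0.39 and 1.05 CPM, and the groups did not overlap.

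**Figure D1:**
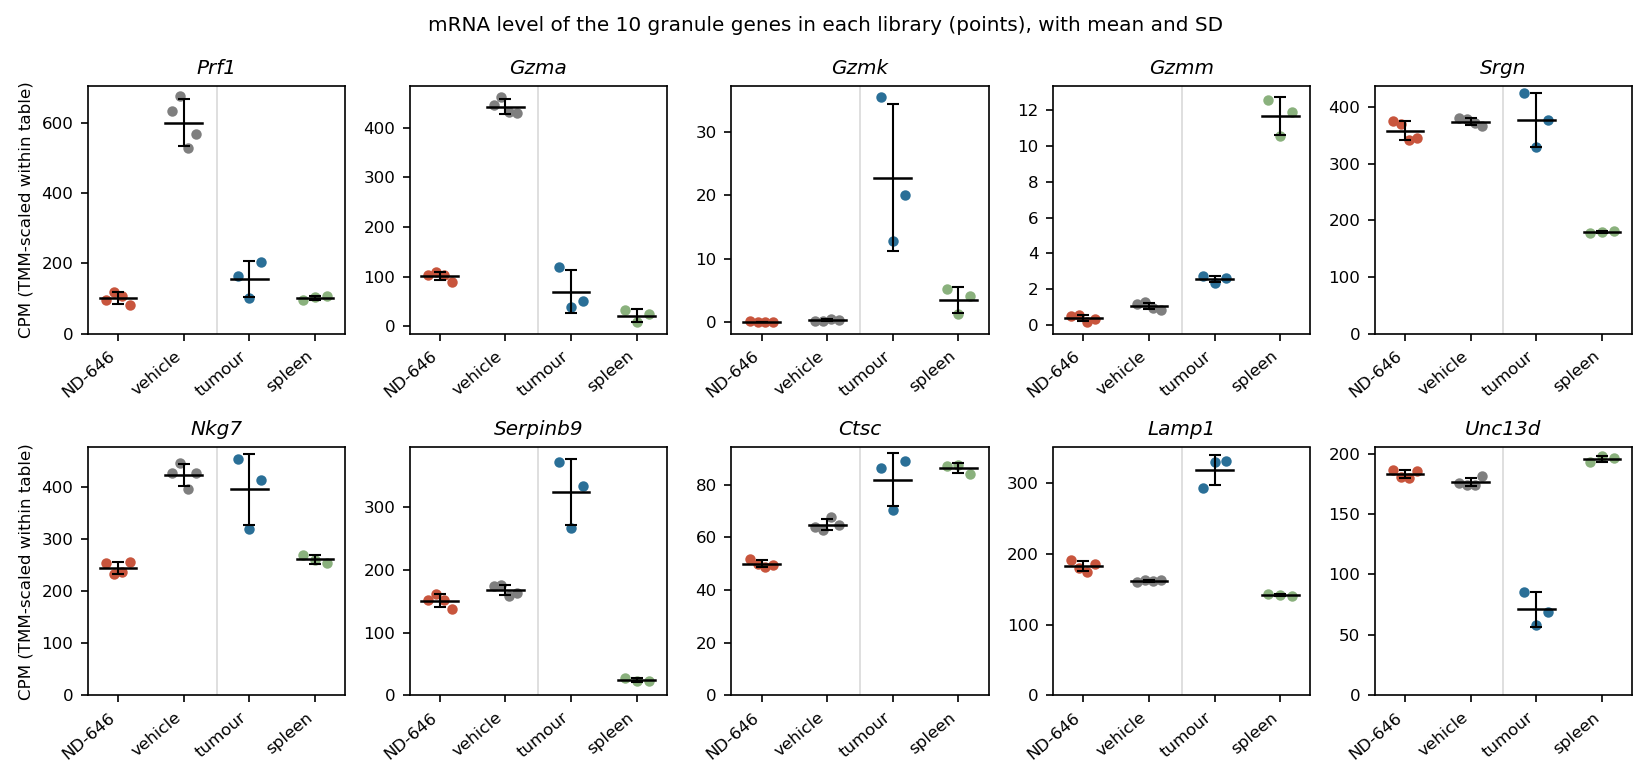
CPM of each of the 10 genes in every library (points, linear axes, a different range for each gene), with the mean of each group as a line and the SD as a bar; ND-646 (n = 4), vehicle (n = 4), tumour (n = 3) and spleen (n = 3). All ND-646 libraries lay between 82.4 and 119 CPM for Prf1 and all vehicle libraries between 527 and 675 CPM.

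Nkg7, a membrane protein of cytotoxic granules, fell as well. It stood at 253, 234, 237 and 256 CPM with ND-646 and at 427, 447, 395 and 426 CPM with vehicle, with no overlap. The log2 fold change was -0.79 ± 0.04 (adjusted p = 3.99e-11). Per kilobase of exon it was the most abundant of the 10 in each group, at 278 RPKM with ND-646 and 481 RPKM with vehicle. On that scale Gzma came second in vehicle cultures at 439.6 RPKM, and Prf1 reached 232 RPKM.

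The promoters of the 3 abundant genes that fell most are shown, since they moved together. The letters are the 250 bases before the start of each gene in RefSeq (GRCm38.p6), written 5′ to 3′ on the gene's strand, at chr10:61297586-61297835 (plus) for Prf1, chr13:113100982-113101231 (minus) for Gzma and chr7:43436888-43437137 (plus) for Nkg7. Capitals mark the core bound by RUNX factors, TGTGGT, here read on the other strand as ACCACA.
Prf1: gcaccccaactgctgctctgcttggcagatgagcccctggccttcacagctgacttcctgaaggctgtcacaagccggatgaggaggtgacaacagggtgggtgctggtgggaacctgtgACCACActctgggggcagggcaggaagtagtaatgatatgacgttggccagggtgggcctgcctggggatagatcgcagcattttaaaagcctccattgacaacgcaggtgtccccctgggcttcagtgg
Gzma: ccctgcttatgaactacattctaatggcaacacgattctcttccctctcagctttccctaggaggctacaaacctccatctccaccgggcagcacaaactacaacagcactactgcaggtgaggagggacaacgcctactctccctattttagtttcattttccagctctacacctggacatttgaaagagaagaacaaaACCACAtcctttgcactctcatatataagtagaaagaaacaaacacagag
Nkg7: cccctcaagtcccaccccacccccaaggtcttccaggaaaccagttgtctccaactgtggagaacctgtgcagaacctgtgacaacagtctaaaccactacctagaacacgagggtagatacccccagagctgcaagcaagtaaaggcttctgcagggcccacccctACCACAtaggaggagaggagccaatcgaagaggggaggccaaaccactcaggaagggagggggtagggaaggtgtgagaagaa
Each held the RUNX core, at -130 in Prf1, -50 in Gzma and -83 in Nkg7 (bases from the start of the gene), as did windows of Gzmm, Srgn, Serpinb9 and Lamp1. It was found on either strand in 16.8% of 32851 promoter windows of 300 bases, so a match is common. Both strands were searched for each motif. A T-box core, GGTGTGA, was found at -13 in Nkg7, -75 in Gzmk, -117 in Ctsc and -189 in Gzmm, and in 3.98% of windows. The STAT spacing TTCNNNGAA was found at -220 in Nkg7, -236 in Ctsc and -86 in Gzmm, and in 8.3% of windows. In the windows of the 9 genes with an entry, no match was found for CCGGAAGT (ETS, 3.89% of windows), TGANTCA (AP-1, 7.81%) or the longer CLEAR motif of lysosomal genes (0.326%). Matches are letters in a window, and binding was not measured.

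The packing protein and the priming factor did not pass. Srgn stood at 376, 369.8, 341 and 346 CPM with ND-646 and at 380.0, 378, 372 and 367 CPM with vehicle, and the ranges overlapped. Its log2 fold change was -0.06 ± 0.04 (adjusted p = 0.175), and without ND-646 library 1 it was -0.10 and passed (adjusted p = 0.0358). Unc13d averaged 183 ± 3.38 CPM with ND-646 and 176 ± 3.19 CPM with vehicle (SD, n = 4 each), a log2 fold change of 0.05 ± 0.03 (adjusted p = 0.200). Perforin mRNA relative to its packing proteoglycan was thus 0.281 reads per read of Srgn with ND-646 and 1.60 with vehicle (geometric means).

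Cathepsin C and the granzyme B inhibitor fell by less. Ctsc stood at 51.7, 49.8, 48.7 and 49.5 CPM with ND-646 and at 63.9, 62.7, 67.8 and 64.7 CPM with vehicle. The groups did not overlap, and the log2 fold change was -0.37 ± 0.04 (adjusted p = 3.52e-07). Serpinb9 stood at 152, 162, 151 and 137 CPM with ND-646 and at 173, 175, 158 and 163 CPM with vehicle. Here the ranges overlapped, and the log2 fold change was -0.15 ± 0.05 (adjusted p = 0.0113). Cst7, cystatin F, which inhibits cathepsin C, averaged 89.9 CPM with ND-646 and 93.6 CPM with vehicle and did not pass (adjusted p = 0.213).

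Lamp1 alone of the 10 rose. It stood at 191, 180.0, 175 and 186 CPM with ND-646 and at 160.3, 163, 162 and 163 CPM with vehicle. The groups did not overlap, and the log2 fold change was 0.17 ± 0.04 (adjusted p = 0.000538). Its promoter is shown because it carries a motif that no other gene with an entry holds more than once: chr8:13158911-13159160 (plus strand, same source), with the E-box CACGTG in capitals, a palindrome that reads alike on both strands and forms the core of the CLEAR motif.
Lamp1: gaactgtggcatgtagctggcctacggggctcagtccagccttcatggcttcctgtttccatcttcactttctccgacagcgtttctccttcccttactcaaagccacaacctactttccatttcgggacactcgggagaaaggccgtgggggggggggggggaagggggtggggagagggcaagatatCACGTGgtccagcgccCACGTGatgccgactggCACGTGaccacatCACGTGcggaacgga
The E-box stood at -61, -45, -28 and -15, 4 times in all. It was found once or more in 7.15% of windows and 3 or more times in 0.0883%. Of the factors known to act on lysosomal genes through such sites, 3 of 4 were tested and 2 rose in ND-646 cultures. Tfeb averaged 21.6 CPM with ND-646 and 17.1 CPM with vehicle (log2 fold change 0.34 ± 0.07, adjusted p = 0.000384), and Tfe3 averaged 36.0 and 26.7 CPM (0.43 ± 0.05, adjusted p = 9.42e-07). The Lamp1 window held no match for the full CLEAR motif, and a part of these factors in the level of Lamp1 was not tested.

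**Figure D2:**
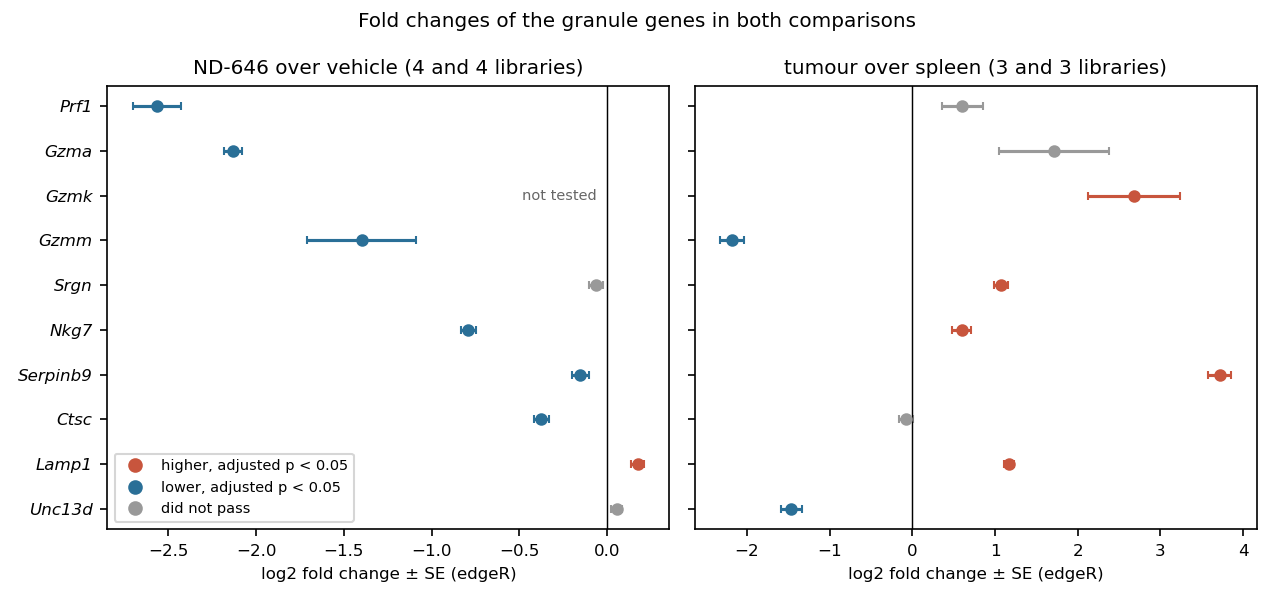
Log2 fold change ± SE of each of the 10 genes, ND-646 over vehicle at left and tumour over spleen at right (the ranges of the axes differ), coloured by whether the gene was called higher or lower. Prf1 and Gzma lay at -2.56 and -2.13 in the cultures and at 0.60 and 1.71 in tumour, and Serpinb9 lay farthest to the right in tumour, at 3.72.

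The wider granule pathway was described by 8 gene lists, each read beside the all-gene median of 0.01. In the granzyme B cluster, 6 of 7 genes were tested and all 6 fell (median -5.41). Gzmd averaged 6.14 CPM with ND-646 and 248 CPM with vehicle. Near-identical copies share reads there, so single values are uncertain. Of 31 measured genes of granule transport and fusion, 27 were tested; 9 rose and 9 fell (median -0.04). Sytl2 and Sytl3, which tether granules through Rab27, averaged 77.1 and 55.5 CPM with ND-646 and 129.6 and 92.7 CPM with vehicle, with log2 fold changes of -0.75 ± 0.05 and -0.74 ± 0.05 (adjusted p = 1.69e-09 and 5.06e-10). Of 31 lysosomal proteins tested, 9 rose and 14 fell (median -0.10). Ctsd, cathepsin D, averaged 413 and 738 CPM, and Ctsw, the cathepsin of killer lymphocytes, 97.6 and 184 CPM, in ND-646 and vehicle cultures (log2 fold changes -0.84 ± 0.04 and -0.92 ± 0.04). Of 17 subunits of the vacuolar proton pump, which acidifies granules, 7 rose and 2 fell (median 0.05). Atp6v1g1 averaged 126 CPM with ND-646 and 71.9 CPM with vehicle (0.80 ± 0.06), and Tcirg1 68.7 and 100.1 CPM (-0.54 ± 0.04).

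Of 11 protease inhibitors tested of 17, 3 rose and 3 fell (median -0.02). Cst3, cystatin C, averaged 105 CPM with ND-646 and 172 CPM with vehicle (-0.72 ± 0.04). Of 21 genes tested of 25 for chondroitin sulfate synthesis, the chain that serglycin carries, 8 rose and 8 fell (median 0.01). Chsy1, a chain polymerase, averaged 101 and 154 CPM (-0.62 ± 0.04), and Slc35b3, which carries the sulfate donor into the Golgi, 59.7 and 36.4 CPM (0.71 ± 0.05). Of 16 transcription factors of cytotoxic genes, 3 rose and 11 fell (median -0.24). Eomes, which drives perforin in killer lymphocytes, averaged 8.96 CPM with ND-646 and 23.8 CPM with vehicle (-1.41 ± 0.08, adjusted p = 4.93e-11), and Id2 135 and 262 CPM (-0.95 ± 0.04, adjusted p = 2.69e-13).

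**Figure D3:**
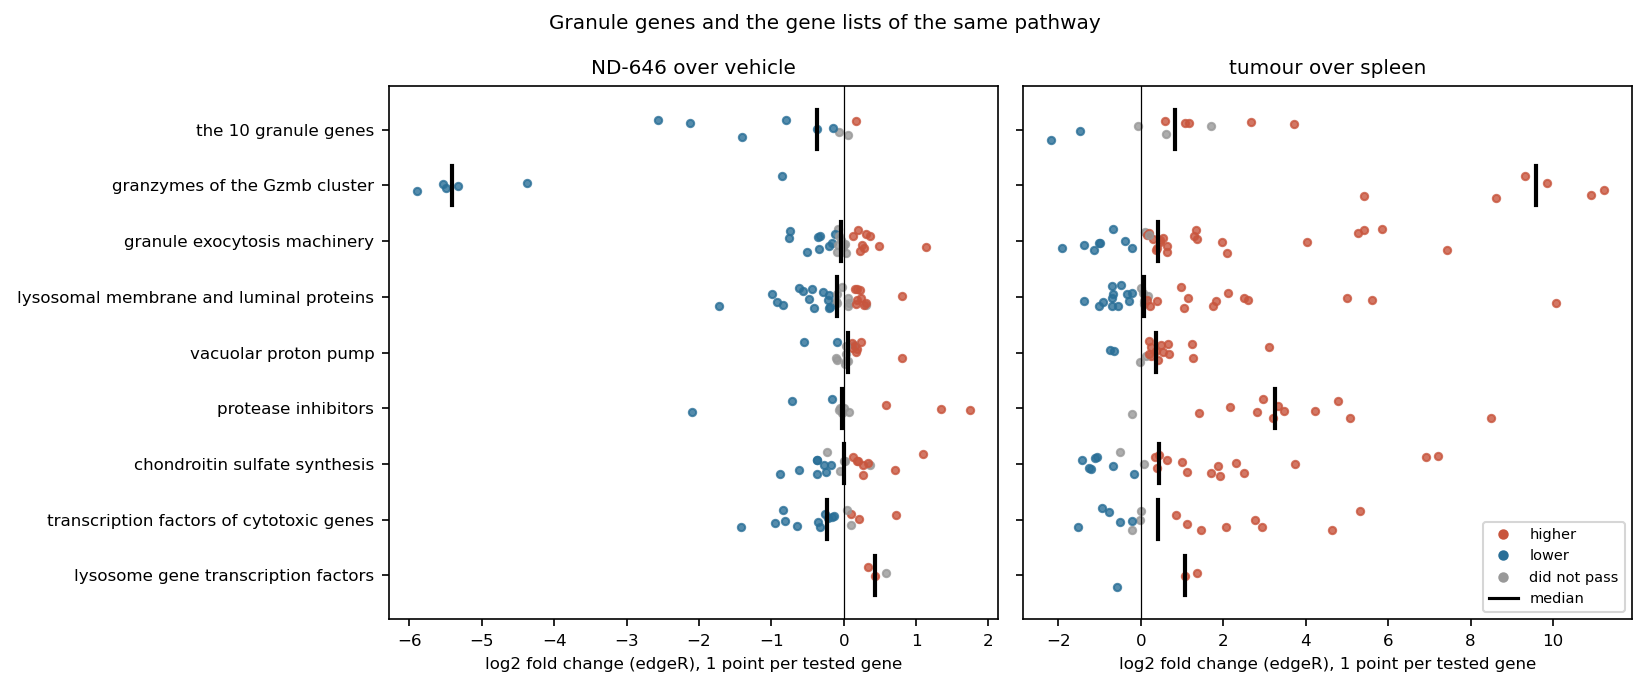
Log2 fold changes of the tested genes of each pathway list (points) with the list's median (line), ND-646 over vehicle at left and tumour over spleen at right. The median of the granzyme B cluster was -5.41 in the cultures and 9.59 in tumour, while granule transport and fusion genes had medians of -0.04 and 0.42.

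The second comparison set CD8+ T cells of the tumour beside those of the spleen. All 10 genes were tested; 5 rose in tumour, 2 fell and 3 did not pass. Over all 15042 genes tested, 43.6% rose, 40.2% fell and 83.8% were called either way. The groups did not overlap for 8 of the 10 genes, against 86.2% of all genes tested. The median log2 fold change of the 10 was 0.84, beside 0.03 over all genes. Scaling to the CD8 identity genes moved the median of all genes by 0.97 on the log2 scale and gave 10435 genes higher and 1818 lower, against 6551 and 6051 with TMM scaling; 8 of the 10 genes were then higher. Tumour library 2, lowest in CD8 identity genes, was also the lowest tumour library for 9 of the 10 genes. How often it was lowest over all genes was not counted, so this is not read as particular to the 10.

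Gzmk rose. It stood at 35.4, 12.8 and 20.03 CPM in the tumour libraries and at 5.21, 1.25 and 4.14 CPM in the spleen libraries, without overlap. Its log2 fold change was 2.68 ± 0.56, or 6.42-fold (adjusted p = 0.00393). Gzma stood at 119, 39.4 and 50.8 CPM in tumour and at 32.1, 7.44 and 24.0 CPM in spleen samples. The groups did not overlap, but each spread widely, and the log2 fold change of 1.71 ± 0.66 did not pass (adjusted p = 0.0564). Without spleen library 1 it was 2.17 and passed (adjusted p = 0.0336), as it did without tumour library 3 (1.93, adjusted p = 0.0483); without tumour library 1 it was 1.13 (adjusted p = 0.190). Under CD8 identity scaling it was 2.62 and passed (adjusted p = 0.0138), and it passed with DESeq2's Wald test (1.79, adjusted p = 0.0223) and with DESeq2 size factors in edgeR (1.77, adjusted p = 0.0433).

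Prf1 stood at 164, 100.2 and 202 CPM in tumour and at 95.7, 105 and 106 CPM in spleen samples. Tumour library 2 lay inside the spleen range and the other two above it. The log2 fold change of 0.60 ± 0.25 did not pass (adjusted p = 0.0599); without tumour library 2 it was 0.87 and passed (adjusted p = 0.00022), and under CD8 identity scaling it was 1.55 and passed (adjusted p = 3.8e-06). It also passed with DESeq2's Wald test (0.68, adjusted p = 0.00246) and with DESeq2 size factors in edgeR (0.67, adjusted p = 0.0407). Gzmm fell. It stood at 2.72, 2.36 and 2.63 CPM in tumour and at 12.6, 10.5 and 11.9 CPM in spleen samples, 4.54-fold lower (log2 fold change -2.18 ± 0.14, adjusted p = 4.19e-07). Gzmb averaged 687 ± 193 CPM in tumour and 16.1 ± 10.1 CPM in spleen samples (SD, n = 3 each), a log2 fold change of 5.41 ± 0.56 (adjusted p = 0.000289), or 6.01 without spleen library 1.

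Spleen samples shared 1 order of granzyme levels. Gzma, Gzmk and Gzmb were each highest in spleen library 1 and lowest in spleen library 2, by 4.32-fold, 4.17-fold and 4.21-fold, while Prf1 spanned 1.11-fold. The ratio of Gzmk to Gzma was therefore nearly level over the spleen libraries, at 0.162, 0.168 and 0.173, and it was 0.298, 0.326 and 0.394 over the tumour libraries.

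Serpinb9 rose most of the 10. It stood at 372, 267 and 334 CPM in tumour and at 28.2, 23.0 and 22.8 CPM in spleen samples, 13.2-fold higher (log2 fold change 3.72 ± 0.14, adjusted p = 5.69e-08). Lamp1 stood at 294, 331 and 332 CPM in tumour and at 144, 141 and 141 CPM in spleen samples (1.17 ± 0.06, adjusted p = 7.46e-08). Srgn stood at 425, 329 and 377 CPM in tumour and at 178, 180.1 and 181 CPM in spleen samples (1.07 ± 0.08, adjusted p = 1.94e-06). For each of these, every tumour library lay above every spleen library. Nkg7 averaged 396 ± 68.9 CPM in tumour and 261 ± 8.28 CPM in spleen samples (0.60 ± 0.11, adjusted p = 0.00111), also without overlap. Lamp1 is made by most cell types, fibroblasts included, and the fibroblast markers given above move with this comparison; their part was not tested.

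Unc13d, the priming factor, fell in tumour. It stood at 85.9, 57.8 and 69.2 CPM in tumour and at 193, 198 and 196 CPM in spleen samples. It was 2.76-fold lower (log2 fold change -1.46 ± 0.12, adjusted p = 7.22e-06), and -0.51 under CD8 identity scaling (adjusted p = 0.0006). Ctsc stood at 86.2, 70.4 and 89.0 CPM in tumour and at 87.1, 87.6 and 84.1 CPM in spleen samples, overlapping, with a log2 fold change of -0.07 ± 0.08 (adjusted p = 0.416). Its sign turned under CD8 identity scaling, where it was 0.89 and passed (adjusted p = 1.0e-05). Cst7 averaged 65.4 CPM in tumour and 75.6 CPM in spleen samples and did not pass (adjusted p = 0.136).

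Among the lists, all read beside an all-gene median of 0.03, the 6 tested genes of the granzyme B cluster all rose in tumour (median 9.59). Of 30 transport and fusion genes tested, 20 rose and 8 fell (median 0.42). Stx11, a syntaxin needed for granule release, averaged 77.5 CPM in tumour and 4.70 CPM in spleen samples (4.04 ± 0.09, adjusted p = 1.41e-09), opposite in direction to Unc13d. Of 12 protease inhibitors tested, 11 rose and none fell (median 3.27). Serpinb6a averaged 164 and 17.7 CPM (3.21 ± 0.08) and Serpina3g 67.2 and 6.73 CPM (3.32 ± 0.11) in tumour and spleen samples. Of 31 lysosomal proteins, 14 rose and 12 fell (median 0.09). Cd63 averaged 291 and 0.26 CPM (10.08 ± 0.24, or 11.14 without spleen library 1) and Ctsl, cathepsin L, 375 and 11.7 CPM; fibroblasts express both.

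Of the 17 proton pump subunits, 13 rose and 2 fell (median 0.37). Atp6v1a averaged 92.0 CPM in tumour and 38.3 CPM in spleen samples (1.27 ± 0.06). Of 23 chondroitin sulfate genes tested, 14 rose and 7 fell (median 0.44). Xylt2, which starts the chain, averaged 32.4 and 86.3 CPM (-1.41 ± 0.05). Uxs1, of the same list, went the other way. It stood at 41.5, 43.0 and 45.3 CPM in tumour and at 9.59, 8.69 and 7.73 CPM in spleen samples. Of 16 transcription factors of cytotoxic genes, 8 rose and 5 fell (median 0.43). Nfil3 averaged 106 and 2.64 CPM (5.33 ± 0.10) and Irf4, which follows antigen receptor signal strength, 76.3 and 9.88 CPM (2.95 ± 0.14). Eomes fell, averaging 35.9 CPM in tumour and 103 CPM in spleen samples (-1.52 ± 0.12, adjusted p = 3.85e-06). Tbx21, of the same list, went the other way. It stood at 155, 118 and 154 CPM in tumour and at 36.7, 30.3 and 35.5 CPM in spleen samples. Of the lysosome factors 2 rose and 1 fell, and Tfe3 averaged 64.3 CPM in tumour and 30.7 CPM in spleen samples (1.07 ± 0.07, adjusted p = 4.06e-07). Tfeb was the one that fell, averaging 15.6 and 23.2 CPM (-0.57 ± 0.10, adjusted p = 0.000459), and it turned to 0.39 under CD8 identity scaling (adjusted p = 0.0207).

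Ratios of reads within a library do not depend on how libraries are scaled. As geometric means over libraries, Prf1 to Gzma averaged 0.997 with ND-646, against 1.35 with vehicle, so perforin fell by more than granzyme A (log2 difference -0.44). Prf1 to Srgn differed by -2.51, Serpinb9 to Gzmb by 0.70 (0.0745 with ND-646 and 0.0459 with vehicle) and Cst7 to Ctsc by 0.32 (1.80 and 1.44). None of these 4 ratios overlapped between the groups; for each the two-sided exact permutation p was 0.0286, the smallest that 4 against 4 libraries allow, and 0.0286 adjusted over the 4. In tumour, Gzmk to Gzma averaged 0.337, against 0.167 in spleen samples (log2 difference 1.01). Prf1 to Srgn averaged 0.398 and 0.569 (-0.52), and Serpinb9 to Gzmb 0.482 and 1.79 (-1.89), in tumour and spleen samples. These 3 ratios did not overlap, but for Prf1 to Srgn the groups all but touched. Tumour library 3 stood at 0.5376 there and spleen library 1 at 0.5388. Each of the 3 ratios had an exact permutation p of 0.1, the smallest that 3 against 3 libraries allow, and 0.167 adjusted over the 5 ratios. Prf1 to Gzma (2.41 in tumour and 5.71 in spleen samples, a log2 difference of -1.24, or -0.59 without spleen library 2, which stood at 14.1) and Cst7 to Ctsc (0.795 and 0.876) had an exact permutation p of 0.2 each.

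**Figure D4:**
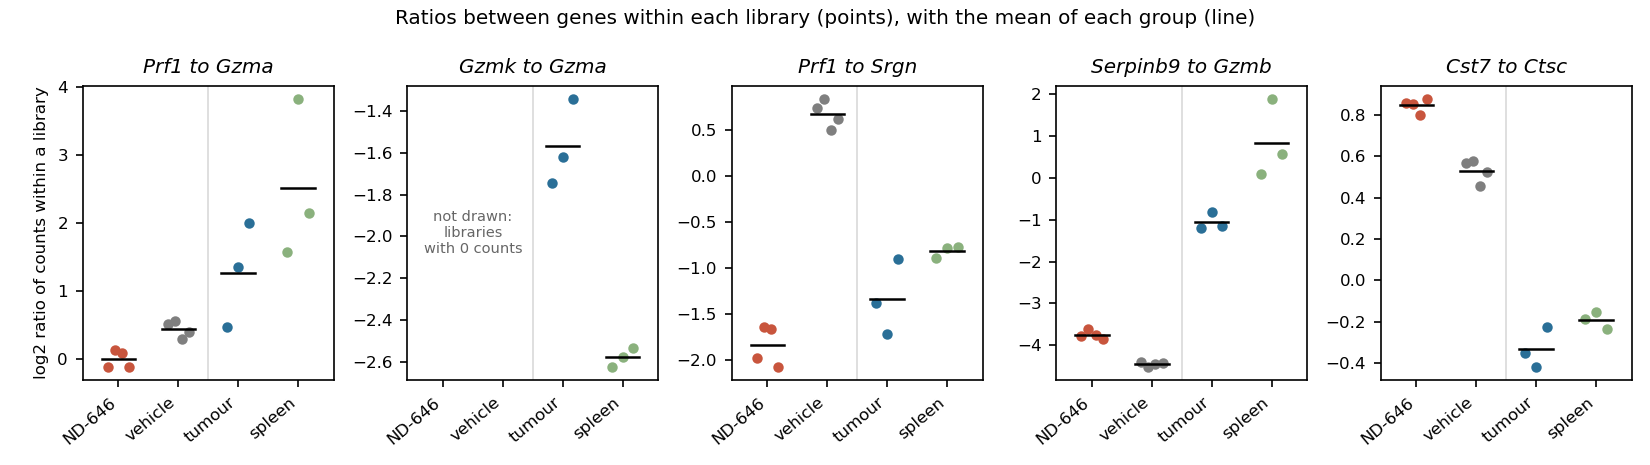
Log2 ratio of the counts of gene pairs within each library (points) with the mean of each group (line); ND-646 and vehicle (n = 4 each), tumour and spleen (n = 3 each). Gzmk to Gzma is not drawn for the cultures, because 2 ND-646 libraries had 0 reads of Gzmk.

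Set side by side across both experiments, which were scaled apart and differ in culture and in tissue, the 10 genes did not share 1 order. Prf1 and Gzma were highest in vehicle cultures, at 600.2 and 442 CPM. Prf1 then stood at 155 CPM in tumour, 102 CPM in spleen and 101 CPM in ND-646 libraries, and neighbours among these overlapped; under CD8 identity scaling ND-646 cultures stood above spleen. Gzma stood at 101 CPM in ND-646, 69.6 CPM in tumour and 21.2 CPM in spleen libraries, with ND-646 and tumour overlapping. Gzmk and Gzmm were higher in cells taken from mice than in cultures: Gzmk averaged 22.8 CPM in tumour and 3.53 CPM in spleen samples, and Gzmm 2.57 and 11.7 CPM. Serpinb9 and Lamp1 were highest in tumour and lowest in spleen libraries. Srgn was lowest in spleen libraries, and its tumour (377 CPM) and vehicle (374 CPM) levels overlapped. Unc13d ran the other way, with 71.0 CPM in tumour and 196 CPM in spleen libraries at the ends of its order. Under CD8 identity scaling ND-646 cultures led for Unc13d, and tumour led for Ctsc in place of spleen.

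**Figure D5:**
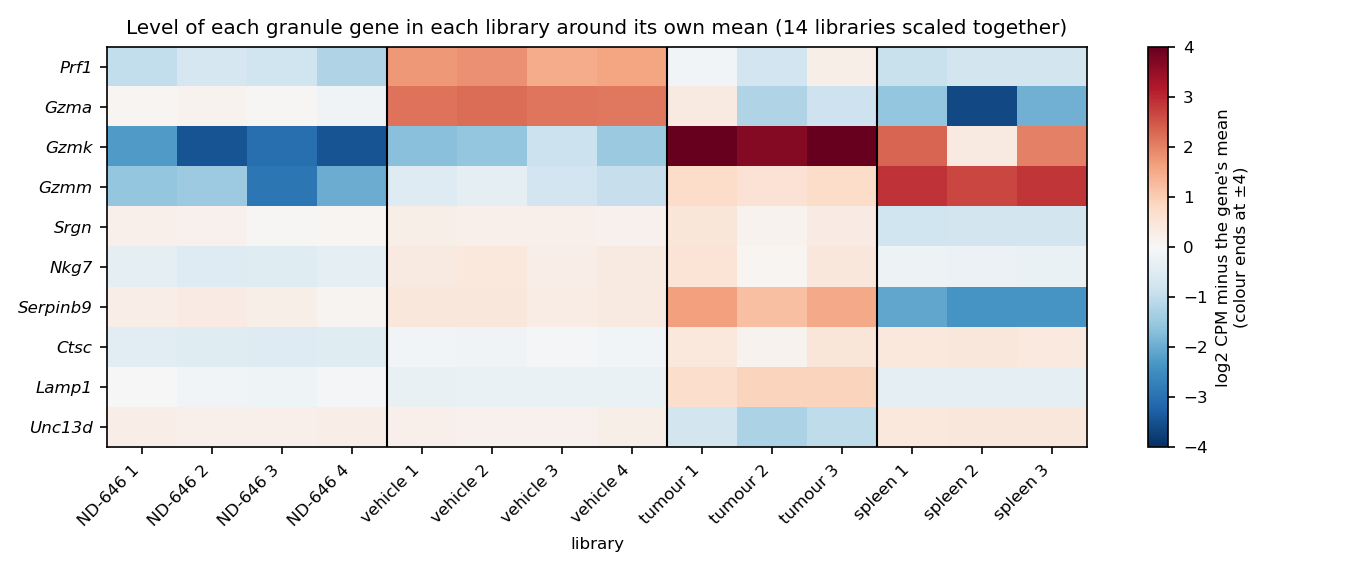
Level of each of the 10 genes in each of the 14 libraries as log2 CPM minus the gene's own mean over all libraries (colour, limited to the range shown), with libraries scaled together by TMM. Serpinb9 is high in tumour and low in spleen columns, Lamp1 is high in tumour columns, Srgn is low in spleen columns and Unc13d is low in tumour columns. Gzmk is highest in the tumour, Gzmm in the spleen, and Prf1 and Gzma in the vehicle columns.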

How the data were processed

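Messenger RNA was read by strand-specific sequencing of poly(A) RNA, 150 bases from each end, per the labels. Estimated counts by symbol were deposited, with 1 table for each experiment; STAR, Salmon and DESeq2 are listed, without versions, in the submitters' processing notes. For genome build, annotation and strand setting: not given in the sources used here. Of the deposited values, 9.16% and 9.15% were not whole (tolerance 1e-06); Lamp1 in the first table and Gzmk and Lamp1 in the second were among them, so some of their reads were shared with other genes by a model. Estimated counts were rounded.

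Groups came from the sample titles. Nothing states that replicates were separate mice or cultures; p-values therefore cover the spread among these samples only, and that may be technical. ND-646 libraries 1 and 4 (chi-square per degree of freedom 5.39) and 2 and 3 (3.86) were nearer each other than the other pairs (7.90 to 12.2).

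Tests were run per table with edgeR 4.0.16 (TMM scaling, filterByExpr, robust quasi-likelihood test, Benjamini-Hochberg adjustment over all genes at 0.05). CPM was computed per TMM-scaled library; RPKM used the union of exons of GENCODE M21 basic, matched for 53292 symbols. SE is the log2 fold change over the square root of F. Ratios were tested by two-sided exact permutation (scipy 1.17.1). On simulated counts the first comparison (14251 genes) recovered 52%, 74%, 94% and 100% of genes changed 1.25-, 1.5-, 2- and 4-fold, with 5.33% false among 169 calls. The second (15042 genes) recovered 36%, 64%, 70% and 98%, with 7.59% false among 145 calls. Only 50 genes were changed at each fold, as many up as down, whereas 56.3% and 83.8% of genes were called in the data. The simulated rates therefore need not hold for these data.

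The genes and lists were chosen with earlier results of these data known. Named list genes are the 2 smallest p-values of each pathway list, from which some are printed, and the most abundant gene of each marker list. Ncr1, Cd8a, Cd4, Foxp3, Eomes, Tbx21 and Tfeb in tumour, and the marker genes at 0 were named after their values were seen. Alternatives were edgeR with DESeq2 size factors, DESeq2 1.42.0, other filters, a replicate block, CD8 identity scaling, a 2-fold minimum and leaving out each library.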

Additional observations from a re-analysis of the deposited data

How the results depend on the processing

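Leaving out each library in turn left 1 gene of the 10 higher and 6 or 7 lower with ND-646 (all genes 3856 to 4069 higher and 3514 to 3866 lower), and 5 or 6 higher and 2 lower in tumour (all genes 6593 to 6851 and 5666 to 6077). Asking for more than a 2-fold change left 0 of the 10 higher and 2 lower with ND-646 (all genes 166 and 275), and 3 higher and 2 lower in tumour (all genes 3769 higher and 2227 lower). CD8 identity scaling in tumour gave 8 of the 10 higher and, over all genes, 10435 higher and 1818 lower. It turned Ctsc to 0.89, Cst7 to 0.75, Tfeb to 0.39, Itga2b to 0.29 and Ly6c2 to 0.73 in tumour, by its own shift of the scale. Ctsc in tumour was also 7.2e-05 with DESeq2's Wald test and -0.11 to 0.052 when single libraries were left out. Itga2b with ND-646 was -0.10 to 0.029 when single libraries were left out and 0.051 in ND-646 libraries 1 and 4 alone, where Bst2 was 0.044. The cause was not tested. Gzmk in the cultures was -2.89 with no filter (edgeR adjusted p = 6.9e-05); Gzmk to Gzma had no ratio there without a pseudocount, and -1.06 with 0.5 counts added. ND-646 libraries 1 and 4 alone gave -2.75 for Prf1 and libraries 2 and 3 alone -2.41, choices made after seeing the data, with 1 of the 10 higher and 6 lower in each.

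Same-numbered samples did not deviate together (correlations -0.121 to 0.0659 in the cultures and -0.0463 to -0.0193 in tumour and spleen), and 1 of 4 and 0 of 3 correlated best with their own number. With the replicate number as a block, 4163 genes were higher and 3701 lower with ND-646 (1 and 6 of the 10), and 6504 and 5988 in tumour (6 and 2 of the 10, Gzma passing at adjusted p = 0.0045). Depth limits Gzmk and Gzmm in the cultures, where single libraries hold 0 to 36 reads.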

Other observations

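Genes whose level followed Prf1, Gzma or Gzmk most closely over the 14 libraries were ranked among 11446 genes by the root mean square difference of log2 CPM centred per gene. Before the log, 0.1 CPM was added. The libraries share 2 experiments and 4 groups, and no test was made. Nearest to Prf1 were Fcgr3, an Fc receptor, at 0.445 on the log2 scale, Upk1a at 0.520 and Slamf7, a receptor of killer lymphocytes, at 0.525. Nearest to Gzma were Galr3 at 0.501, Kif19a at 0.620 and Dnm3 at 0.622, and nearest to Gzmk were Xcl1, a chemokine of CD8+ T cells, at 0.766, Gas7 at 0.862 and Rgmb at 0.954. Some of these were scarce. In spleen libraries Galr3, Kif19a, Dnm3 and Upk1a averaged 0.409, 0.0809, 0.195 and 0.362 CPM, while Slamf7 averaged 26.0 CPM. Gzmk itself averaged 0.0406 CPM with ND-646. At such low levels the added 0.1 CPM shapes the match.

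Markers of other cells that make granule or protease transcripts were summed in each library. Mast cell and basophil markers summed to 7.47 to 11.3 CPM with ND-646 and 39.2 to 46.1 CPM with vehicle, where Kit was the most abundant and Mcpt1, Mcpt2, Mcpt4 and Tpsab1 were at 0 in both. Kit made up most of the vehicle sum, at 36.0 to 41.9 CPM. The markers summed to 41.8 to 52.4 CPM in tumour and 3.75 to 4.39 CPM in spleen libraries. Gata2 was the most abundant there, at 18.6 to 24.1 CPM in tumour and 0 to 0.145 CPM in spleen libraries. Of the 12 genes, 8 were at 0 in every spleen library and none in every tumour library. All 5 tested were higher in tumour (median log2 fold change 7.93). Macrophage, monocyte and neutrophil markers summed to 16.2 to 23.7 CPM with ND-646 and 26.4 to 29.2 CPM with vehicle, and to 251 to 358 CPM in tumour and 321 to 338 CPM in spleen libraries. Ly6c2, which CD8+ T cells also express, was the most abundant, and without it the sums were 5.91 to 7.73, 18.6 to 20.8, 32.3 to 48.3 and 7.54 to 9.57 CPM in ND-646, vehicle, tumour and spleen libraries. Dendritic cell markers summed to 125 to 152 CPM with ND-646 and 141 to 155 CPM with vehicle, and to 102 to 118 CPM in tumour and 66.1 to 79.8 CPM in spleen libraries. B cell markers summed to 148 to 173 CPM with ND-646 and 115 to 131 CPM with vehicle, and to 57.5 to 73.8 CPM in tumour and 826 to 859.7 CPM in spleen libraries. CD4 and regulatory T cell markers, mostly Il2ra in the cultures and Ctla4 in tumour, summed to 911 to 938 CPM with ND-646 and 1330.5 to 1360.6 CPM with vehicle, and to 320.2 to 457 CPM in tumour and 15.6 to 21.3 CPM in spleen libraries. Fibroblast markers summed to 3.42 to 4.61 CPM with ND-646 and 4.97 to 6.23 CPM with vehicle. Endothelial markers summed to 28.4 to 32.0 CPM with ND-646 and 41.3 to 47.1 CPM with vehicle. They summed to 53.5 to 59.5 CPM in tumour and 161 to 172 CPM in spleen libraries. Pecam1 alone made up nearly all of the spleen sum, at 160 to 171 CPM, against 25.0 to 28.4 CPM in tumour. Of 7 endothelial markers tested, 6 were higher in tumour and 1 lower (median log2 fold change 4.62), so the sum does not show the direction of the list. Erythroid and platelet markers summed to 2.06 to 2.57 CPM in tumour and 3.09 to 4.09 CPM in spleen libraries. Erythroid and platelet markers summed to 8.34 to 9.42 CPM with ND-646 and 8.98 to 10.9 CPM with vehicle. The part of these cells in the granule gene results was not tested.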
